A study of Mus musculus with 10 samples.

Results

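Inflammasomes, necroptosis and pyroptosis are inflammatory routes of cell death, and 10 of their genes were followed in obstructed mouse kidneys. The genes encode sensors (Zbp1, Nlrp3), an adaptor (Pycard), kinases (Ripk1, Ripk3), caspases (Casp8, Casp1, Casp4) and the executors that open membranes (Mlkl, Gsdmd). They were found by exact symbol among the 54532 genes of the deposited table, and all 10 of 10 were present, each with 1 row. All 10 also passed the filter on low counts, which kept 16505 genes over 10 libraries. The kidneys came from wild-type male C57BL/6 mice, in which the left ureter was tied at 8 weeks of age (unilateral ureteral obstruction, UUO) and tissue was taken on day 14. Control mice received PBS (5 libraries, labelled CTL), and treated mice received dimethyl malonate (DMM, 5 libraries) intraperitoneally at 40 mg/kg every other day. DMM is a cell-permeable ester of malonate, an inhibitor of succinate dehydrogenase. Both groups carried the obstruction, and no unobstructed kidney was analysed here, so the values describe DMM against PBS in injured tissue and not the effect of obstruction.

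Necroptosis is started when RIPK1 or ZBP1 engages RIPK3, which phosphorylates the pore-forming protein MLKL, and caspase-8 restrains this route by cleaving the kinases. Inflammasomes are assemblies in which a sensor such as NLRP3 recruits the adaptor ASC, encoded by Pycard, to activate caspase-1, whereas caspase-4 (also called caspase-11 in mice) senses cytosolic lipopolysaccharide directly; both caspases cleave gasdermin D, whose released fragment forms pores. In the injured kidney these proteins are found in tubular cells and in infiltrating myeloid cells, and several of their genes, above all Zbp1, are known to be induced by interferon.

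Total counts lay between 16457495 and 18078777 in the PBS libraries and between 15722527 and 19475833 in the DMM libraries. Levels are given as CPM, counts set relative to the library total after scaling by edgeR's TMM method, the same scale for every library. The kidney label was checked with marker genes. Umod, a product of the thick ascending limb, was measured at 1001 to 3704 CPM and the proximal tubule gene Lrp2 at 219.6 to 2504 CPM, so tubular transcripts were abundant in every library. Podxl of podocytes was at 281 to 544 CPM and Pecam1 of endothelium at 146 to 230.2 CPM.

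A few libraries stood apart from their group. The deposited group means can be written as sums over 4 libraries of each group, in which neither PBS replicate 3 nor DMM replicate 1 takes part; no reason is given in the sources used here. DMM replicate 1 correlated better with the PBS libraries (median r of log2 CPM 0.9853) than with the other DMM libraries (0.9592), and its closest library was PBS replicate 5. PBS replicate 3 was closest to DMM replicate 2 (r = 0.9822), with PBS replicate 1 nearly level (0.9821). Its median r was 0.9769 with the other PBS libraries and 0.9767 with the DMM libraries. Its 6 proximal tubule markers lay 1.46 log2 units above the PBS mean, near the 1.45 of DMM replicate 3, whereas its 20 interferon-stimulated genes lay only 0.25 below it (-0.25). DMM replicate 4 differed in another way. Its median correlation was 0.9139 with the PBS and 0.9153 with the other DMM libraries. Its mitochondrial share of counts was the highest, at 5.62%. That share was 3.79%, 4.03% and 4.39% in DMM replicates 2, 3 and 5 and 3.66% in PBS replicate 3. In the other PBS libraries and DMM replicate 1 the share was between 1.97% and 2.30%, and its part in the levels of the 10 genes was not tested. The deviations of DMM replicate 4 from the PBS mean went down with the GC content of the transcript (Spearman's rho over genes -0.48) and up with its length (0.43). In the other 9 libraries these rho values lay between -0.09 and 0.16 and between -0.12 and 0.08. The main fold changes and calls are therefore given over all 10 libraries and over the 8 libraries without PBS replicate 3 and DMM replicate 1. For the 10 genes, DMM replicate 4 is named where it decides a value. The sets share 8 libraries and are not independent.

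Over all 10 libraries the fold change was below 1 for 9 of the 10 genes, with a median log2 fold change of -0.63, against 0.02 over all 16505 genes tested. Calls required more than a 1.5-fold difference and, in edgeR's quasi-likelihood test, an adjusted p (Benjamini-Hochberg) below 0.05. With this rule 0 of the 10 genes were called lower or higher over 10 libraries, and of all genes 0% were called lower and 0% higher; DESeq2, on the same libraries but with its own filter of genes, called 1 of the 10 genes, Pycard, and 36 genes lower and 14 higher in all. With p below 0.05 before adjustment and the same fold threshold, 7 of the 10 were lower in edgeR's test (Zbp1, Pycard, Ripk3, Casp1, Casp4, Mlkl and Gsdmd), against 4.11% of all tested genes (678 lower, and 315 higher). By p alone 7 of the 10 also passed, and leaving out 1 library gave from 4 (without PBS replicate 5) to 8 (without DMM replicate 1), with 5 without DMM replicate 5 and 6 without PBS replicate 4 or DMM replicates 2 or 3. No gene had an adjusted p below 0.378 in that test, a value that 353 genes shared, Pycard among them. A p that misses the threshold does not show that values did not differ.

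With PBS replicate 3 and DMM replicate 1 set aside, 6 of the 10 genes were called lower (Zbp1, Pycard, Ripk3, Mlkl, Casp4 and Gsdmd), against 3.56% of the 16550 genes then tested, and 0 were called higher, against 2.73%. The median log2 fold change of the 10 genes was -0.85, and that of all genes was 0.02. Before adjustment, p below 0.05 and more than a 1.5-fold difference held for 7 genes, Casp1 being added, where the share of all genes was 7.24%. This set leaves out the DMM library nearest to the PBS group and a PBS library whose closest library was a DMM one, so its calls and its counts of genes without overlap depend on that choice, and the methods state 5 independent replicates. PBS replicates 4 and 5, which were kept, also had a DMM library as their closest, DMM replicate 1. In 7 of the 10 genes every DMM library lay below every PBS library, which held for 10.6% of all genes. Over all 10 libraries this was so only for Pycard, against 1.16% of all genes. Leaving out DMM replicate 1 alone gave 3 called genes (Zbp1, Mlkl and Pycard), and leaving out any other single one of the 10 libraries gave 0. The counts over 8 libraries also leaned on single libraries. Between 1 and 7 of the 10 genes were called when another library was left out, with 1 (Zbp1) without PBS replicate 5 or DMM replicate 3, 2 without PBS replicate 4 or DMM replicate 5, 4 without PBS replicates 1 or 2 or DMM replicate 2, and 7 without DMM replicate 4. The count of all genes called lower moved with them, from 590 to 276 without PBS replicate 5 and to 1281 without DMM replicate 4. As the tissue was sequenced in bulk, fewer cells that carry a transcript and less transcript per cell cannot be told apart.

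**Figure D1:**
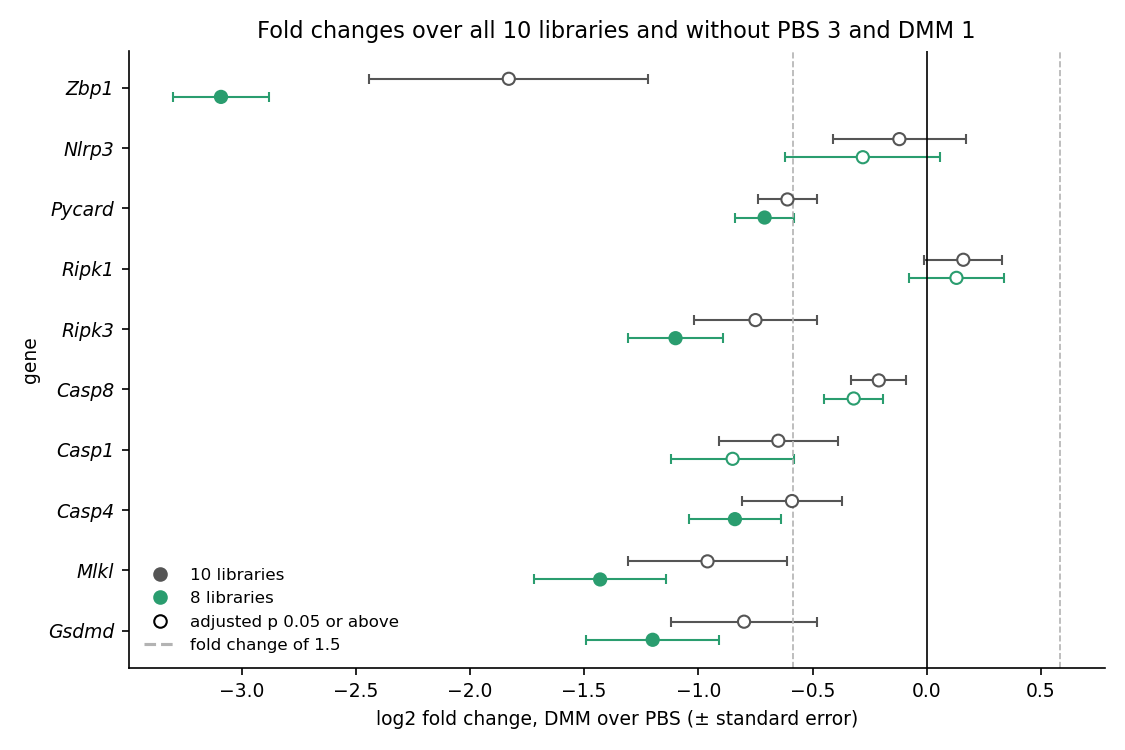
Log2 fold change of DMM over PBS with its standard error for each gene (horizontal axis, log2 units), over all 10 libraries (grey) and over 8 libraries (green); filled points have an adjusted p under 0.05 and dashed lines mark a fold change of 1.5. Zbp1 stands farthest to the left, at -1.83 and -3.09, and Ripk1 is the only gene to the right of 0.

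Zbp1 (chromosome 2, 173206612 to 173218923), the sensor of Z-form nucleic acids that binds RIPK3, was measured at 137, 126, 108, 147 and 151 CPM in PBS replicates 1 to 5. In DMM replicates 1 to 5 it was at 123, 23.9, 16, 14 and 12.2 CPM. DMM replicate 1 lay inside the PBS range, and the other 4 DMM libraries lay far below every PBS library. The group means were 134 ± 17.7 and 37.8 ± 47.8 CPM (SD, n = 5 each), where the large SD of the DMM group came from replicate 1. The log2 fold change was -1.83 (standard error 0.61), with an adjusted p = 0.385 by edgeR's quasi-likelihood test. Without PBS replicate 3 and DMM replicate 1 the means were 140.5 ± 11.3 and 16.5 ± 5.16 CPM (SD, n = 4 each). The log2 fold change was then -3.09 (standard error 0.21, edgeR adjusted p = 1.23e-04), a fall by 8.51-fold that ranked 18th by p among 16550 genes. Zbp1 stayed called when any further library was left out of the 8, with log2 fold changes between -3.33 and -2.97.

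Nlrp3 (chromosome 11, 59541568 to 59566956), the inflammasome sensor of membrane damage and potassium loss, had values of 6.35, 6.36, 7.70, 14.7 and 10.6 CPM in PBS replicates 1 to 5 and 10.7, 7, 5.84, 11.9 and 6.56 CPM in DMM replicates 1 to 5. The groups overlapped over almost their whole range, and replicate 4 was the highest library of each. Their log2 fold change was -0.12 (standard error 0.29, edgeR adjusted p = 0.871) over 10 libraries and -0.28 (standard error 0.34, adjusted p = 0.673) over 8. When PBS replicate 4 was left out these became 0.11 and 0.00, so no direction can be given. Counts were low, from 103 to 276 reads per library. The 2 libraries with the highest Nlrp3 also had the highest summed level of 6 neutrophil markers, 115 CPM (PBS) and 102 CPM (DMM), against 18.2 to 34.6 CPM in the other 8. Csf3r was the most abundant neutrophil marker, with 46.7 and 28.2 CPM in these 2 libraries, and the defining marker Ly6g was near 0, at no more than 0.353 CPM. The part of neutrophils in the level of Nlrp3 was not tested.

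Pycard (chromosome 7, 127989708 to 127993867) encodes ASC, the adaptor that links sensors to caspase-1. It was at 31.2, 27.4, 31.4, 30.4 and 32.6 CPM in PBS replicates 1 to 5, and at 26.2, 21.8, 16.9, 17.5 and 18.2 CPM in DMM replicates 1 to 5. Every DMM library lay below every PBS library, DMM replicate 1 included, although the gap between DMM replicate 1 and PBS replicate 2 was small. The means were 30.6 ± 1.96 and 20.1 ± 3.88 CPM (SD, n = 5 each), and the log2 fold change was -0.61 (standard error 0.13). Its unadjusted p was 8.93e-04 in edgeR's quasi-likelihood test (adjusted p = 0.378), the 14th smallest of 16505 genes, and its exact two-sided permutation p was 0.00794, the smallest that 252 relabelings can give. Over 8 libraries the log2 fold change was -0.71 (standard error 0.13, edgeR adjusted p = 0.0135). This call was lost without PBS replicate 5 (adjusted p = 0.0603), DMM replicate 3 (0.0514) or DMM replicate 5 (0.0521), with log2 fold changes of -0.68, -0.67 and -0.70.

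**Figure D2:**
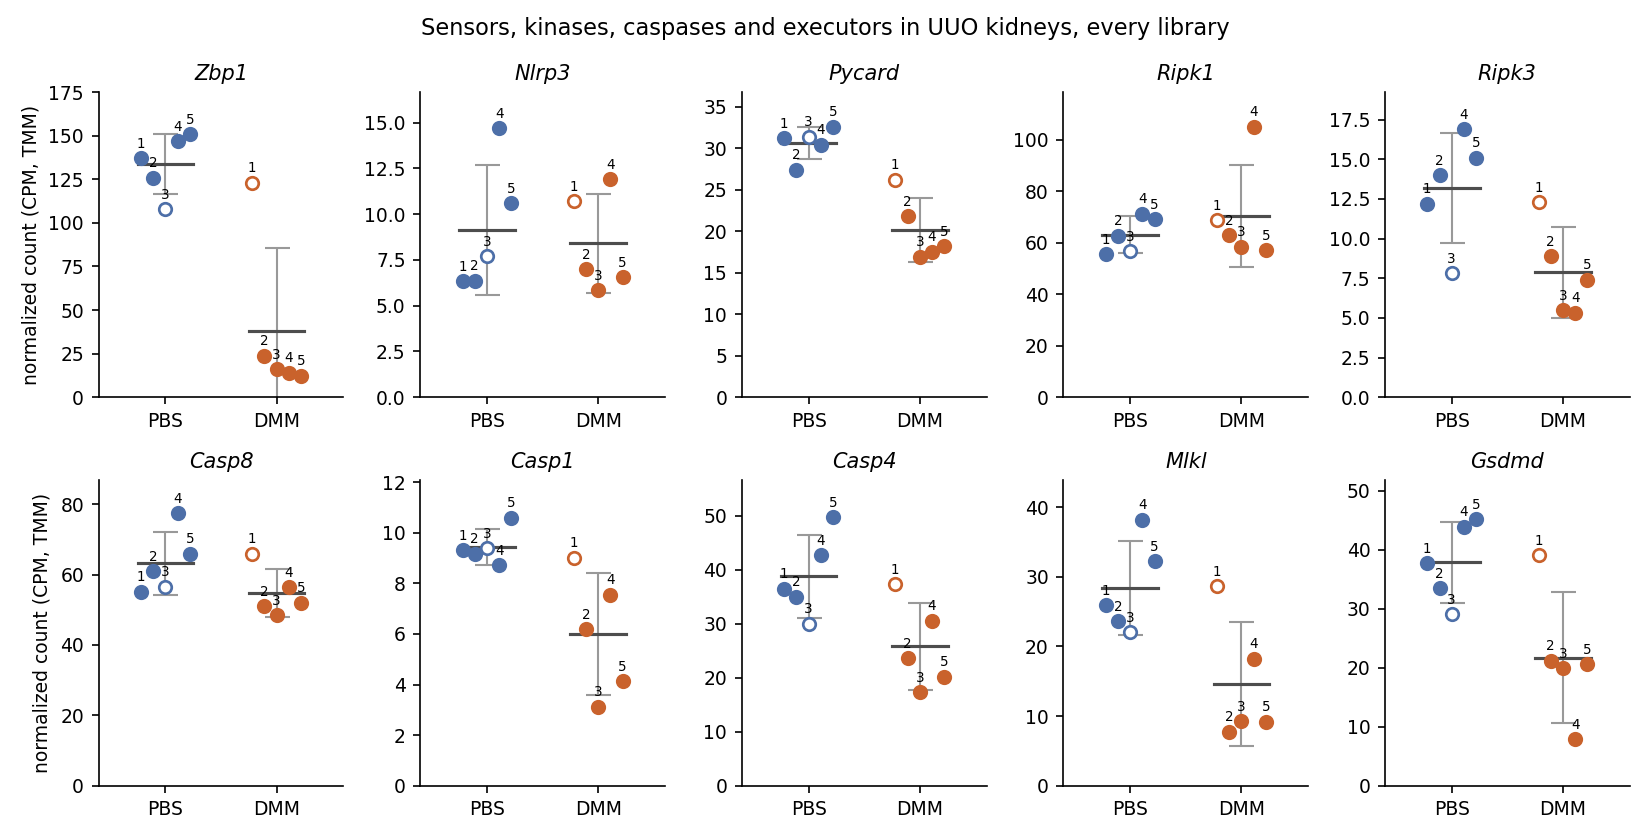
Normalized count (CPM, vertical axis) of each gene in every library, labelled by replicate number, with PBS in blue, DMM in orange and hollow points for PBS replicate 3 and DMM replicate 1; horizontal lines are means and bars are SDs (n = 5), the Zbp1 bar of the DMM group being clipped at 0. DMM replicate 1 sits with the PBS libraries for Zbp1 (123 CPM) and below all of them for Pycard (26.2 CPM).

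Ripk1 (chromosome 13, 34002363 to 34037147), the kinase and scaffold of the TNF receptor complex, was at 55.6, 62.7, 56.7, 71.2 and 69.2 CPM in PBS replicates 1 to 5 and at 68.8, 62.8, 58.4, 105 and 57.0 CPM in DMM replicates 1 to 5. The groups overlapped, and only DMM replicate 4 lay outside the PBS range. DMM over PBS gave a log2 fold change of 0.16 (standard error 0.17, edgeR adjusted p = 0.715) over 10 libraries and 0.13 (standard error 0.21, adjusted p = 0.761) over 8. Its direction rested on DMM replicate 4, without which it was -0.03 and -0.12. The gene overlaps Serpinb6a on the opposite strand, which was measured at 76.3 to 122 CPM with a log2 fold change of -0.06 (standard error 0.14) over 10 libraries. The shared stretch is only the start of Ripk1, from 34002363 to 34002794. Whether reads were counted by strand is not stated, so reads in that stretch cannot be assigned.

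Ripk3 (chromosome 14, 55784995 to 55788865), the kinase that phosphorylates MLKL, was at 12.2, 14, 7.81, 16.9 and 15.1 CPM in PBS replicates 1 to 5. In DMM replicates 1 to 5 the values were 12.3, 8.89, 5.50, 5.32 and 7.42 CPM. PBS replicate 3 lay within the DMM range and DMM replicate 1 within the PBS range, and the remaining 8 libraries separated by group. As a log2 fold change this was -0.75 (standard error 0.27, edgeR adjusted p = 0.388) with 10 libraries and -1.10 (standard error 0.21, adjusted p = 0.0162) with 8, where the means were 14.6 ± 1.94 and 6.78 ± 1.70 CPM (SD, n = 4 each). The latter call was lost without PBS replicate 4 (adjusted p = 0.0579), PBS replicate 5 (0.0622) or DMM replicate 3 (0.0567), while the log2 fold change reached from -1.27 to -1.0. Counts were between 88 and 317 reads per library.

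Among the caspases, Casp8 (chromosome 1, 58795374 to 58847503), the initiator caspase of death receptors, was at 55.2, 61.0, 56.6, 77.4 and 65.9 CPM in PBS replicates 1 to 5 and at 66.0, 51.0, 48.4, 56.5 and 52.0 CPM in DMM replicates 1 to 5. The ranges overlapped with either set of libraries, through DMM replicates 1 and 4 over 10 and through DMM replicate 4 over 8. Over 10 libraries the log2 fold change was -0.21 (standard error 0.12, edgeR adjusted p = 0.538). Over 8 libraries it was -0.32 (standard error 0.13, adjusted p = 0.179), short of a fold change of 1.5. Without DMM replicate 4 as well, it was -0.36 (edgeR adjusted p = 0.0331), still short of that fold change. The differences between caspases in fold change were not tested.

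Casp1 (chromosome 9, 5298517 to 5307265), the protease that matures interleukin-1 beta and interleukin-18, was at 9.32, 9.18, 9.39, 8.72 and 10.6 CPM in PBS replicates 1 to 5. The DMM replicates 1 to 5 had 9.01, 6.18, 3.12, 7.55 and 4.13 CPM. The PBS libraries lay close together (SD 0.692 CPM, n = 5) and the DMM libraries were spread out (SD 2.41 CPM, n = 5), with only DMM replicate 1 reaching the PBS values. For Casp1 the log2 fold change was -0.65 (standard error 0.26, edgeR adjusted p = 0.413) over 10 libraries and -0.85 (standard error 0.27, adjusted p = 0.101) over 8, so Casp1 was not called in either. Without DMM replicate 4 as well, the log2 fold change over the rest of the 8 was -1.08 (edgeR adjusted p = 0.00676), and DESeq2 gave an adjusted p of 0.0316 over 8 libraries. All alternatives gave adjusted p from 0.00676 to 0.469 over 8 libraries and from 0.0973 to 0.702 over 10. The lowest library held 55 reads of Casp1.

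Casp4 lies next to Casp1 (chromosome 9, 5308828 to 5336783) and was measured at 36.5, 35.0, 30.0, 42.7 and 49.8 CPM in PBS replicates 1 to 5. It was at 37.3, 23.6, 17.3, 30.6 and 20.2 CPM in DMM replicates 1 to 5. PBS replicate 3 and DMM replicate 4 were nearly level, and DMM replicate 1 lay within the PBS range. The log2 fold change was -0.59 (standard error 0.22, edgeR adjusted p = 0.388) over 10 libraries and -0.84 (standard error 0.20, adjusted p = 0.0367) over 8. The call over 8 libraries was kept only without DMM replicate 4 (adjusted p = 0.00155). It was lost without PBS replicates 1 (adjusted p = 0.0698), 2 (0.0650), 4 (0.106) or 5 (0.115) and without DMM replicates 2 (0.0670), 3 (0.0932) or 5 (0.106), at log2 fold changes between -0.91 and -0.73.

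Mlkl (chromosome 8, 111311797 to 111338177), the executor of necroptosis, was at 25.9, 23.6, 22.0, 38.2 and 32.2 CPM in PBS replicates 1 to 5 and at 28.6, 7.75, 9.29, 18.2 and 9.18 CPM in DMM replicates 1 to 5. DMM replicate 1 lay in the PBS range, DMM replicate 4 came close to it, and DMM replicates 2, 3 and 5 were far below. For Mlkl the log2 fold change was -0.96 (standard error 0.35, edgeR adjusted p = 0.388) over 10 libraries. Over 8 libraries it was -1.43 (standard error 0.29, adjusted p = 0.0212), from 30.0 ± 6.58 to 11.1 ± 4.80 CPM (SD, n = 4 each), the second largest fall of the 10 genes after Zbp1. It was no longer called without PBS replicates 4 (adjusted p = 0.0683) or 5 (0.0690) or DMM replicates 3 (0.0702) or 5 (0.0694), at log2 fold changes of -1.30, -1.40, -1.36 and -1.35.

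Gsdmd (chromosome 15, 75862327 to 75867408), the executor of pyroptosis, was at 37.7, 33.5, 29.1, 43.9 and 45.2 CPM in PBS replicates 1 to 5. In the DMM replicates 1 to 5 it was at 39.1, 21.2, 19.9, 7.91 and 20.6 CPM. DMM replicate 1 was above 3 of the PBS libraries, DMM replicates 2, 3 and 5 were nearly level, and DMM replicate 4 was the lowest of all. The log2 fold change was -0.80 (standard error 0.32, edgeR adjusted p = 0.420) over 10 libraries and -1.20 (standard error 0.29, adjusted p = 0.0392) over 8. Without DMM replicate 4 it was smaller, -0.96, but with an adjusted p of 5.93e-04. The call over 8 libraries was lost without PBS replicates 1 (adjusted p = 0.0868), 2 (0.0781), 4 (0.117) or 5 (0.121) and without DMM replicates 2 (0.0572), 3 (0.0873) or 5 (0.0807), at log2 fold changes between -1.31 and -1.14.

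DMM replicate 4 thus had the highest Ripk1, Casp8, Casp1, Casp4, Nlrp3 and Mlkl among DMM replicates 2 to 5 and the lowest Gsdmd and Ripk3. The GC content of the longest transcript was 45.1% for Ripk1, 46.6% for Casp8, 41.1% for Casp1, 38.1% for Casp4, 51% for Nlrp3 and 48.6% for Mlkl, against a median of 49.6% over tested genes. It was 54.4% for Gsdmd and 54.2% for Ripk3, and 45.6% for Pycard and 51% for Zbp1, which were neither highest nor lowest in that library. The part of GC content in these levels was not tested. After a correction of each library for GC content and transcript length, added after seeing the data, 7 of the 10 genes and 684 of all 16550 (590 without the correction) were called lower over 8 libraries, Casp1 now included (log2 fold change -0.87, edgeR adjusted p = 0.0477). Gsdmd had a log2 fold change of -1.09 (adjusted p = 0.00283) and Casp4 of -0.93 (adjusted p = 0.00355) in that fit. Over all alternatives with 8 libraries their adjusted p ranged from 5.93e-04 to 0.229 and from 0.00155 to 0.281, and that of Casp1 from 0.00676 to 0.469. With 10 libraries the ranges were 0.0585 to 0.724 for Gsdmd, 0.0711 to 0.702 for Casp4 and 0.0973 to 0.702 for Casp1. Ripk1 was at -0.03 in the corrected fit. Of all calls 53.7% were then higher, against 43.4% without the correction. Over 10 libraries the corrected fit called 0 of the 10 genes, with 7 at an unadjusted p under 0.05.

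Levels were compared between genes as RPKM, the CPM per kilobase of the deposited gene length. For Pycard that length was 3800 bases, most of the gene's span. For Casp4 it was 3710 bases, whereas the longest transcript has 1901. A deposited length above that of the transcripts present gives too low an RPKM. The order of genes below therefore depends on these lengths, and other lengths were not tried. In PBS kidneys Zbp1 was the highest, at 37.9 ± 5.01 RPKM (SD, n = 5), above Casp8 at 21.9 ± 3.09 and Gsdmd at 15.9 ± 2.86 RPKM. Mlkl followed at 12.3 ± 2.92, Casp4 at 10.5 ± 2.06, Pycard at 8.06 ± 0.515, Ripk1 at 7.56 ± 0.851, Casp1 at 6.31 ± 0.462 and Ripk3 at 5.76 ± 1.51 RPKM. Nlrp3 was the lowest, at 2.26 ± 0.876 RPKM. With these lengths Zbp1 was separate from all others, between 30.5 and 42.9 RPKM in the 5 libraries. Casp8 (19.1 to 26.7 RPKM) and Gsdmd (12.3 to 19 RPKM) did not quite overlap. From Gsdmd down, each gene overlapped its neighbours in this order.

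In DMM kidneys over the 4 libraries without replicate 1, the order was led by Casp8 at 18.0 ± 1.16 RPKM (SD, n = 4), with Ripk1 at 8.49 ± 2.74 and Gsdmd at 7.32 ± 2.67 RPKM next. The order of Ripk1 and Gsdmd rested on DMM replicate 4 (12.6 and 3.33 RPKM), and in DMM replicates 2, 3 and 5 Gsdmd was the higher one. Zbp1 came 7th of the 10 genes, at 4.68 ± 1.46 RPKM, and Nlrp3 remained last at 1.93 ± 0.680 RPKM. With DMM replicate 1 included, Casp8 was still first at 18.9 ± 2.40 RPKM and Zbp1 was 2nd at 10.7 ± 13.5 RPKM (SD, n = 5), a mean carried by the 34.8 RPKM of replicate 1. Casp4 (6.18 ± 1.54), Pycard (4.90 ± 0.579), Mlkl (4.83 ± 2.09) and Zbp1 had overlapping ranges over the 4 libraries.

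Relative to the mean of the PBS kidneys, the 10 genes moved unevenly within a library. The median over the genes was -0.56, -1.02, -0.46 and -0.82 log2 units in DMM replicates 2 to 5 and 0.00 in DMM replicate 1. All 10 genes were below the PBS mean in DMM replicates 3 and 5, 9 in DMM replicate 2, 8 in DMM replicate 4 and 5 in DMM replicate 1. Among PBS libraries the median was lowest in replicate 3, at -0.24, and highest in replicate 4, at 0.21.

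Over the 10 libraries Pearson's r of log2 CPM was 0.96 between Zbp1 and Pycard, 0.93 between Mlkl and Casp4, 0.92 between Casp1 and Casp4 and 0.87 between Ripk3 and Gsdmd. Ripk1 had its highest r within the list with Nlrp3 (0.71) and its lowest with Gsdmd (-0.54). These are descriptions over n = 10 libraries, which share the group difference, the libraries that stand apart and the GC trend of DMM replicate 4. Outside the list, the genes with the most similar pattern over n = 10 libraries were, for Zbp1, Rtp4, Oas3 and Ifi47 (each with r rounding to 1), all interferon-stimulated genes. For Pycard they were Clec12a (r = 0.99), Slc28a2 and Itgb2 (0.98 each), for Casp1 Stat4 (0.99), Xcr1 and Ly9 (0.98 each), and for Casp4 Tnfrsf1b, Ikzf1 and Slc15a3 (0.97 each). Mlkl was closest to Tor1aip2, Gm6548 and Tor1aip1 (0.99 each), and Gsdmd to Dok1, Pilrb1 and Rgs14 (0.99 each). Ripk3 was closest to Man1c1 (0.99), Lix1l and Fxyd5 (0.97 each), Ripk1 to Osmr (0.99), Kpna4 and Tti1 (0.98 each), Casp8 to Ggta1 (0.98), Itga5 and Ube2f (0.95 each), and Nlrp3 to Btg1 (0.96) and Il1rn (0.94).

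The levels moved beside those of other gene groups. All 20 genes of an interferon reference list (such as Isg15, Irf7 and Oas3) were called lower over 8 libraries (3.56% of all genes), with a median log2 fold change of -3.10, and 0 were called over 10, where the median was -1.77. Of these, Oasl1 had the smallest p, with 126, 92.1, 87.4, 134 and 134 CPM in PBS replicates 1 to 5 and 106, 11, 12.5, 10.8 and 9.91 CPM in DMM replicates 1 to 5. DMM replicate 1 was again within the PBS range and all other DMM libraries far below it. The summed level of the 20 genes was 5985, 3840.0, 4382, 5962 and 5747 CPM in PBS replicates 1 to 5 and 4693, 804, 698, 592 and 590.2 CPM in DMM replicates 1 to 5. Cmpk2, the next gene by p, had a log2 fold change of -2.65 (edgeR adjusted p = 7.45e-05) over 8 libraries and of -1.56 over 10, the latter not called.

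The general leukocyte markers were lower in the same libraries. Their summed level (4 genes, led by Laptm5) was 639, 572, 536, 585 and 677 CPM in PBS replicates 1 to 5 and 559, 394, 287, 379 and 291 CPM in DMM replicates 1 to 5. DMM replicate 1 lay in the PBS range and the other DMM libraries below it. Over 8 libraries 3 of 4 leukocyte, 2 of 7 macrophage, 2 of 4 monocyte, 1 of 6 T cell and 1 of 5 NK cell markers were called lower (3.56% of all genes), and 0 of 5 tested neutrophil and 0 of 4 B cell markers were called; over 10 libraries 0 of each were. The 7 macrophage markers, led by C1qb, summed to 1531, 1432, 1217, 1444 and 1649 CPM in PBS replicates 1 to 5 and to 1323, 949, 796, 706 and 812 CPM in DMM replicates 1 to 5. The 4 monocyte markers, led by Plac8, summed to 313, 257, 264, 391 and 368 CPM in the PBS libraries and to 313, 173, 138, 219 and 149 CPM in the DMM libraries, in the same order. Not every marker followed its sum. The macrophage marker Mrc1 had log2 fold changes of 0.08 over 8 and 0.13 over 10 libraries. DMM replicate 4 had the highest Mrc1 of all libraries (202 CPM) but low C1qa (32.5), C1qb (49.4) and C1qc (43.3 CPM). Its monocyte markers Ccr2 (115 CPM) and Itgam (26.0 CPM) lay within the PBS range. The 6 T cell markers, led by Cd4, summed to 48.1, 48.6, 47.3, 42.0 and 69.5 CPM in the PBS and 43.5, 36.1, 15.8, 19.5 and 19.5 CPM in the DMM libraries. The 5 NK cell markers, led by Klrk1, summed to between 12.7 and 20.4 CPM in PBS and between 6.12 and 13.3 CPM in DMM libraries, and the 4 B cell markers, led by Cd79b, to between 6.14 and 7.98 CPM and between 3.20 and 8.26 CPM. The defining macrophage marker Adgre1 was present in every library, at 67.8 to 157 CPM. The part of leukocyte number and of the interferon-stimulated genes in the lower levels of the 10 genes was not tested.

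Tubular markers went the other way. The 6 proximal tubule markers, led by Lrp2, summed to 1306, 1332, 3428, 476 and 982 CPM in PBS replicates 1 to 5 and to 944, 2674, 3260.5, 3769 and 3735 CPM in DMM replicates 1 to 5. PBS replicate 3 was here among the DMM libraries and DMM replicate 1 among the PBS libraries. The sum of DMM replicate 4 was carried mainly by Lrp2, at 2504 CPM, and its Cubn was also the highest of all libraries. By contrast, its Slc34a1 (474 CPM), Slc5a2 (36.4 CPM), Slc22a6 (99.2 CPM) and Slc13a3 (130.2 CPM) lay within the range of the 5 PBS libraries. Over 8 libraries 3 of 6 proximal tubule markers (Lrp2, Cubn and Slc13a3) and 3 of 5 markers of the loop, distal tubule and collecting duct (Slc12a1, Slc12a3 and Calb1) were called higher (2.73% of all genes), and over 10 libraries 0 were. The latter 5, led by Umod, summed to between 1657 and 4252 CPM in PBS and between 1870.1 and 5122 CPM in DMM libraries, lowest in DMM replicate 4, where Umod (1001 CPM) was below all other libraries. Of 5 fibroblast and myofibroblast markers, led by Col1a1, 1 (Col1a2) was called lower over 8 libraries. Their sum was between 3214 and 8486 CPM in PBS and between 2393 and 7237 CPM in DMM libraries. Of 5 injured tubule, 4 endothelial and 3 podocyte markers 0 were called with either set. A change in the share of tubular RNA also moves every other gene in CPM, and its part was not tested.

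**Figure D3:**
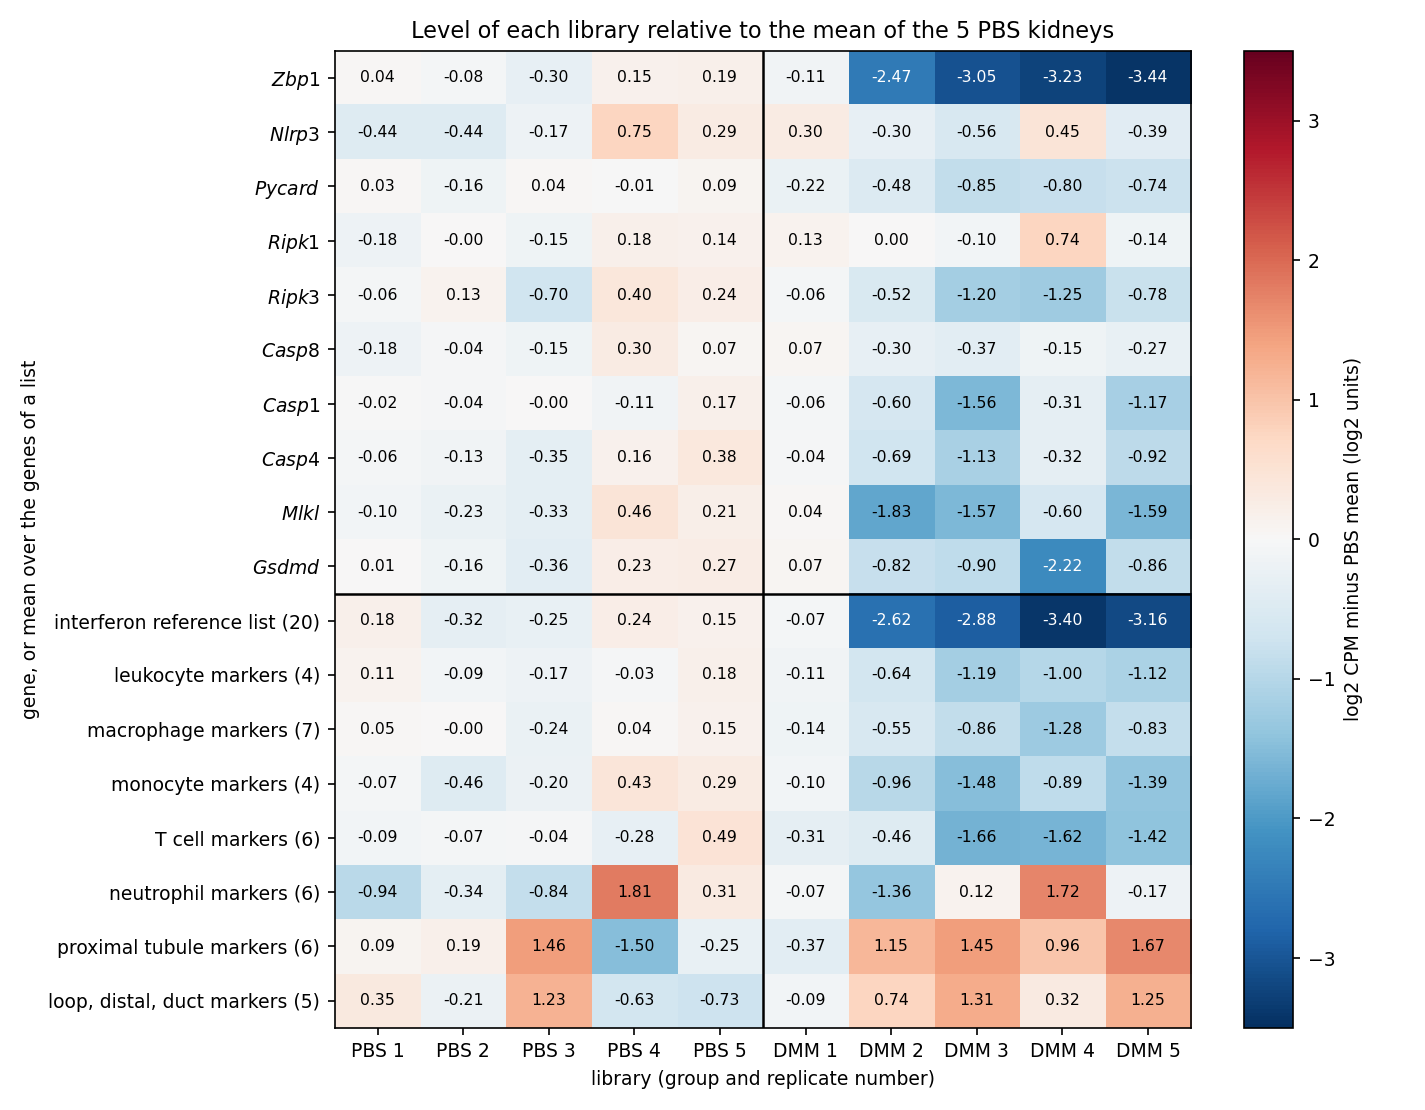
Log2 CPM of each gene (upper rows) and mean over the genes of each list (lower rows, number of genes in parentheses) minus the mean of the 5 PBS kidneys, for every library (columns); blue is lower and red is higher. Zbp1 and the interferon reference list are the darkest rows in DMM replicates 2 to 5 and stay near 0 in DMM replicate 1 (-0.11 and -0.07), and PBS replicate 3 shows the tubular markers of the DMM kidneys (1.46) without their fall in interferon genes (-0.25).

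Among 17 tested genes of other inflammasome sensors and regulators, 3 were called lower (P2rx7, Aim2 and Naip5) and 1 higher (Nlrp6) over 8 libraries, where the shares of all genes were 3.56% and 2.73%, and 0 over 10; the median log2 fold changes were -0.24 and -0.16. P2rx7, the ATP-gated channel that triggers NLRP3, was at 41.8, 36.3, 27.9, 33.3 and 37.9 CPM in PBS and 33.9, 23.2, 18.0, 23.3 and 18.4 CPM in DMM replicates 1 to 5. Only DMM replicate 1 reached the PBS values, and the log2 fold change was -0.85 (standard error 0.14, edgeR adjusted p = 0.00955) over 8 libraries and -0.60 (standard error 0.18, adjusted p = 0.378) over 10. Aim2, the sensor of cytosolic DNA, was at -1.20 log2 units (edgeR adjusted p = 0.0122) over 8 and -0.79 over 10 libraries. For Naip5, a receptor of bacterial flagellin, these were -0.76 (standard error 0.17, edgeR adjusted p = 0.0338) and -0.50.

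A further list held genes downstream of gasdermin D, the other gasdermins, the interleukin-1 family and the caspase gene Casp12. Of these, 14 were tested over 8 libraries and 15 over 10. Over 8 libraries 2 were called lower, Il18bp and Casp12, against 3.56% of all genes, and over 10 libraries 0. Il18bp, the secreted antagonist of interleukin-18, was at 31.3, 20.5, 29.1, 29.1 and 31.4 CPM in PBS and 23.5, 10.3, 11.1, 8.03 and 10.3 CPM in DMM replicates 1 to 5. DMM replicate 1 and PBS replicate 2 were the libraries nearest the other group, and the log2 fold change was -1.50 (standard error 0.18, edgeR adjusted p = 0.00228) over 8 and -1.16 (standard error 0.27, adjusted p = 0.378) over 10 libraries. Casp12, a caspase encoded near Casp1, had -0.70 (edgeR adjusted p = 0.0178) and -0.52, and Il18r1, a chain of the interleukin-18 receptor, had -0.78 (adjusted p = 0.134) and -0.53, not called. Il18r1 was at 23.6 CPM in DMM replicate 4, within the PBS range, and at 11.2, 9.41 and 12.2 CPM in DMM replicates 2, 3 and 5. Il1b, the main substrate of caspase-1, was at 15.6, 27.3, 14.1, 51.4 and 18.9 CPM in PBS and 14.6, 8.57, 6.12, 29.5 and 6.69 CPM in DMM replicates 1 to 5, again highest in replicate 4 of each group. Its log2 fold change was -1.16 (edgeR adjusted p = 0.289) over 8 libraries and -0.96 (adjusted p = 0.502) over 10. Il18 was at 1.53 to 5.27 CPM in all 10 libraries. Gsdme, the gasdermin cleaved by caspase-3, was at 73.3 CPM in DMM replicate 4 and at 12.7 to 22.2 CPM in the other 9 libraries. Il1b, Il18 and Gsdme were named after their values were seen.

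In the TNF and death receptor complexes 30 genes were tested over 8 libraries and 29 over 10. Over 8 libraries 4 were called lower (Rnf31, Tnfsf10, Ikbke and Tnfrsf1b) and 1 higher (Chuk), against 3.56% and 2.73% of all genes, and over 10 libraries 0. Rnf31, the catalytic subunit of the linear ubiquitin ligase, had log2 fold changes of -0.74 (standard error 0.10, edgeR adjusted p = 0.00447) over 8 and -0.53 over 10 libraries. Tnfsf10, encoding TRAIL, had -1.10 (standard error 0.15, edgeR adjusted p = 0.00531) and -0.81, and the kinase gene Ikbke had -0.98 (standard error 0.18, adjusted p = 0.0164) and -0.69. The adaptor Fadd, which joins caspase-8 to death receptors, was level, at 18.5 to 25.1 CPM in all libraries, and the caspase-8 homologue Cflar was highest in DMM replicate 4, at 342 CPM, against 181 to 237 CPM elsewhere; both were named after their values were seen.

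Among 11 triggers and brakes of necroptosis 1 was called lower over 8 libraries, Adar (of all genes 3.56%), and 0 over 10, with median log2 fold changes of -0.05 and -0.04. Adar encodes the editing enzyme whose activity on double-stranded RNA limits sensing by ZBP1. It was at 203, 182, 168, 219 and 209 CPM in PBS replicates 1 to 5 and at 207, 76.3, 74.5, 73.6 and 62.7 CPM in DMM replicates 1 to 5. As for Zbp1, DMM replicate 1 lay in the PBS range and all other DMM libraries far below it, and the log2 fold change was -1.50 (standard error 0.11, edgeR adjusted p = 1.61e-04) over 8 and -0.99 (standard error 0.31, adjusted p = 0.378) over 10 libraries. Ppm1b, a phosphatase of RIPK3, had 0.38 (edgeR adjusted p = 0.0528) and 0.27, and Tlr3, the receptor of endosomal double-stranded RNA, had -0.94 (adjusted p = 0.0645) and -0.66. Neither was called. Tlr3 was at 63.1 CPM in DMM replicate 4, within the PBS range, and at 29.7, 28.7 and 30.9 CPM in DMM replicates 2, 3 and 5.

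The core apoptosis genes numbered 24 tested, of which 1 was called lower over 8 libraries, where 3.56% of all genes were, and 0 over 10. Over 8 libraries Casp2 had a log2 fold change of -0.46 (edgeR adjusted p = 0.0477), short of a fold change of 1.5, and Bak1 of -0.51 (adjusted p = 0.0511). Over 10 libraries these were -0.35 (edgeR adjusted p = 0.385) and -0.34 (adjusted p = 0.441). The median of the 24 genes was -0.20 over 8 and -0.12 over 10 libraries.

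Promoters were read from RefSeq (build GRCm38.p6, 250 bases before to 50 after each start), which gave 11 promoters for 8 of the 10 genes. Zbp1 and Gsdmd had no entry in the set of promoters used here. The 250 upstream bases were searched on both strands for GAAANNGAA, the core of the interferon-stimulated response element, and for TTCNNNGAA, the gamma-activated site. The first was found in 0 of the 11 promoters, against 7.13% of all 32851 promoters, and the second in 1 of 11, a promoter of Ripk1, against 7.02%. The match near its second start is shown, from the plus strand at chr13:34002795-34002873, outside the exons of GENCODE M21, with the 9 bases of the match in capitals.
Ripk1 upstream stretch: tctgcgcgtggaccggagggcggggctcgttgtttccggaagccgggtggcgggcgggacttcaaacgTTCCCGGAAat
A second copy of the same 9 bases lies between positions -108 and -100 from that start, in an exon of Serpinb6a. A match is a description of letters and not of binding, and the absence of these letters from a window says nothing of the factors.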

How the data were processed

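RNA of UUO kidneys was sequenced after preparation with an mRNA-seq kit, with 5 libraries per group. According to the submitters' processing notes reads were aligned with HISAT2 2.0.5, and the methods name mm10; the counting tool, annotation release and strand setting are not given in the sources used here. The authors deposited unnormalized counts per gene, which were tested here, and FPKM values, which were not. The deposited group means are a signal of counts divided by size factors, and were used only to find which libraries enter them. The authors' log2 fold change, p-value and adjusted p-value columns hold their DESeq2 comparison and were not used. The gene length deposited by the authors served for RPKM.

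Genes were kept by filterByExpr (16505 over 10 libraries, 16550 over 8), scaled by TMM and tested with the quasi-likelihood test of edgeR 4.0.16 in R 4.3.3, with Benjamini-Hochberg adjustment over all tested genes; calls required more than 1.5-fold and an adjusted p below 0.05 (before adjustment, p below 0.05 was also counted). The steps were tested on simulated counts. Log2 CPM used a prior count of 2. Named genes were the 10 members, the 3 genes of smallest p over 8 libraries in each of 6 pathway lists, and the 3 most correlated genes of each member; others are marked where named. Values of some of these genes are not reported here, though lists and totals include them. Members and lists were chosen with earlier results of these data known. Each kidney is taken as a separate mouse from the statement of 5 independent replicates. Positions are those of the deposited table, in mm10. Counts are reads without molecular identifiers, so intervals of counting were not given. Alternatives were DESeq2 1.42.0, RLE or library-size scaling, no filter, no fold threshold, leaving out each library, a block for replicate numbers, an exact permutation test and, added after seeing the data, a loess correction for GC content and length. No protein sequences were analysed here.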

Additional observations from a re-analysis of the deposited data

Results flagged for a closer look

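In groups of 5 libraries, a library was marked when its gap to the nearest other library exceeded 0.71 of the group's range (Dixon's test), which chance gives in about 1 of 20 groups; 56 groups, of the 10 members and the 3 genes named from each of 6 pathway lists, were tested and 11 values were marked. DMM replicate 1 was the high library in 9 of them, of which 8 are given. Its values were 123 CPM for Zbp1, 10.2 for Aim2, 23.5 for Il18bp, 69.6 for Rnf31, 164 for Tnfsf10, 207 for Adar, 106 for Oasl1 and 179 CPM for Cmpk2, each within the PBS range. All but Zbp1, a member, were chosen by their p over the 8 libraries, which leave DMM replicate 1 out, so that these marks are not independent of one another or of the choice. Ripk1 was marked for DMM replicate 4, at 105 CPM, above all other libraries. Il18bp was also marked for the lowest PBS value, 20.5 CPM in PBS replicate 2.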

How the results depend on the processing

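Zbp1, Ripk3, Mlkl, Pycard, Casp1, Casp4, Gsdmd and Casp8 kept a negative log2 fold change under every alternative run over 10 and over 8 libraries. Ripk1 reversed without DMM replicate 4 (-0.03 over 10, -0.12 over 8 libraries), with library size alone (-0.01 over 8) and with the GC and length correction (-0.03 over 8). Without PBS replicate 4, Nlrp3 reversed over 10 libraries (0.11) and showed no difference over 8 (0.00). The cause was not tested. Leaving out 1 library gave Ripk1 from -0.03 to 0.22 over 10 and from -0.12 to 0.22 over 8, and Nlrp3 from -0.28 to 0.11 and from -0.56 to 0.00.

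Over 10 libraries, where 0 genes were called, DESeq2 called 1 of the 10 members lower, and of all genes 36 lower and 14 higher, and the 8 libraries gave 6, 590 and 452. Leaving out 1 library gave 0 to 3 members, 0 to 436 genes lower and 0 to 50 higher, each highest without DMM replicate 1. Over 8 libraries 6 members, 590 genes lower and 452 higher became 7, 911 and 749 with DESeq2, which tested all genes with its own filter; among the genes kept for edgeR it gave 880 lower and 710 higher. Library size alone gave 276 higher and 700 lower (28.3% of calls higher, against 43.4%), and moved the median log2 fold change of all genes from 0.02 to -0.09. The GC and length correction gave 793 higher and 684 lower (53.7% higher). Leaving out 1 of the 8 gave 1 to 7 members, 276 to 1281 genes lower and 131 to 1129 higher, the highest without DMM replicate 4. RLE factors, no filter and no fold threshold left 6 members called.

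With the replicate block, 0 members, 0 genes lower and 0 genes higher were called over 8 libraries. Zbp1 then had a log2 fold change of -3.14, with an adjusted p of 0.0514 by edgeR. Of the 8 libraries only replicates 2, 4 and 5 have a library in both groups. Only these inform the group difference in that fit, so its lack of calls does not show a lack of difference. The deviations of same-numbered libraries from their group means had r = -0.06, 0.08, 0.34, 0.12 and -0.22 over 10 libraries. The labels do not state what the numbers stand for, and a pairing by number was not tested. Exact permutation over all genes allows no p under 0.0286 with 8 libraries and 0.00794 with 10, and after adjustment gave no call (lowest member 0.142 and 0.327).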
